A study of Nothobranchius furzeri with 6 samples.

Results

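Ribosome footprints at the ends of coding sequences were examined in livers of the turquoise killifish (Nothobranchius furzeri), a vertebrate that ages within months. For each transcript, the stop codon, the 20 codons before it and the 3 codons after it were taken, 24 rows in all, and the reads on each row were divided by the mean reads per codon of the internal part of the same coding sequence. The internal part leaves out the first and last 20 codons. This ratio is called the density, and a density of 1 is the average of the coding sequence. Transcripts entered with at least 100 coding codons, over 0.5 reads per coding codon and over 64 coding reads in each age, with the libraries of an age summed. This gave 6378 of 22757 transcripts, and 6369 of them had internal reads in every library and were used throughout. Just inside the limit lay a transcript with 0.5004 reads per coding codon in its lowest age, and just outside it one with 0.5.

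Each of 3 ages was covered by 2 libraries. Young livers were taken 5 weeks after hatching, adult livers after 12 weeks and old livers after 39 weeks. All were untreated fish of the MZM-0410 strain, as far as the methods state, and each library pooled livers of several fish of both sexes. All lysates contained cycloheximide, a drug that arrests elongating ribosomes. Total reads ran from 22617158 in old replicate 2 to 39738019 in adult replicate 1, and the median transcript had between 229 and 468 internal reads per library. The deposited transcript identifiers carry no gene names, so the liver label was not checked against marker genes and transcripts are described by length, stop codon and last residue.

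Translation ends when a stop codon enters the A site, the ribosomal site that otherwise accepts an aminoacyl-tRNA, while the finished chain is still held on the last tRNA in the P site. Release factor eRF1 reads all of the stop codons TAA (ochre), TAG (amber) and TGA (opal), and the GTPase eRF3 helps it to release the chain. ABCE1 then splits the ribosome. In yeast and mammals the base after the stop codon is known to affect how efficiently termination proceeds, and TGA is known as the leakiest of the stop codons. In these data the deposited codon was read as the P site, because the density at the start codon row, where initiating ribosomes hold ATG in the P site, was 5.93 (range 5.56 to 6.51 over 6 libraries) against 0.339 one row earlier. On that reading a terminating ribosome is counted on the last sense codon, and the stop codon row holds ribosomes with the stop codon in the P site. The study's methods name an A-site estimate, under which the same reads would belong to ribosomes one codon further upstream. Because the sources leave the site open, both rows together are called termination below. On the P-site reading only the last sense codon holds terminating ribosomes.

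The sequences around the stop codon are shown first for the transcripts on which the single values below turn. Each line gives the last 6 sense codons in lower case, the stop codon in capitals and the next 3 codons in lower case, 5′ to 3′, as the deposited codon column holds them. The first set holds the 5 transcripts with the highest termination density, which is the mean density of the last sense codon and the stop codon row, among the 4820 with at least 100 internal reads in every library.
267 codons: aaccatttaaacgccacgTAAagtccgaca
1646 codons: cagcatgagaagatcacaTAGgaccatgga
615 codons: tccatggactcctacctaTAGggcctacac
1310 codons: caacagggtggtaaaacaTAActggacaca
568 codons: tggaatgatggatacagcTAGacccagaag

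The second set holds the 5 transcripts with the highest mean density over the 3 rows after the stop codon, under the same coverage minimum.
772 codons: cattcactttccgcttggTGAtgcggctcg
890 codons: gcaaccttttacggggtgTAAcggtttcca
103 codons: gggagagacgagcagggcTGAcggcccgac
553 codons: gtgtcctgggtcttccctTAGgtctcctcc
600 codons: atcactaaagctggttgcTGAggttaaacc

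The third set holds the 4 transcripts whose termination reads were called as changed, relative to their internal reads, from young to old. The first 2 went upward and the other 2 downward.
Nfu_t_1_055613: cagaacaaaaagggagtgTGAgcagcctgt
Nfu_t_1_006469: tgtactgccaagtgttctTAAgacaaccat
Nfu_t_1_014452: agcacaagagagatgcacTGActacaagct
Nfu_t_1_007406: ctgggctggcctcctggcTAAcctccgtcc

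Reads rose sharply on the last sense codon and fell within the next 3 rows. The density of the last sense codon was 1.454 and 1.335 for young, 1.434 and 1.396 for adult and 1.297 and 1.581 for old. The stop codon row held 0.570 and 0.604 for young, 0.508 and 0.450 for adult and 0.494 and 0.570 for old. Every library placed its highest density of the 24 rows on the last sense codon, and the stop codon row held between 0.322 and 0.453 of it. The end window, rows -20 to -2, averaged 0.923 to 0.964, and the last sense codon exceeded it 1.35-fold to 1.67-fold in all 6 libraries (two-sided exact sign-flip permutation test, p = 0.03125, the smallest p that 6 libraries allow, and the same after adjustment over 5 ratios). For comparison, the peak at the start codon of the same transcripts was 5.93. These sign-flip tests take a library as the unit, and all 6 libraries read the same transcripts, so they measure the spread between libraries and not the spread between transcripts.

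**Figure D1:**
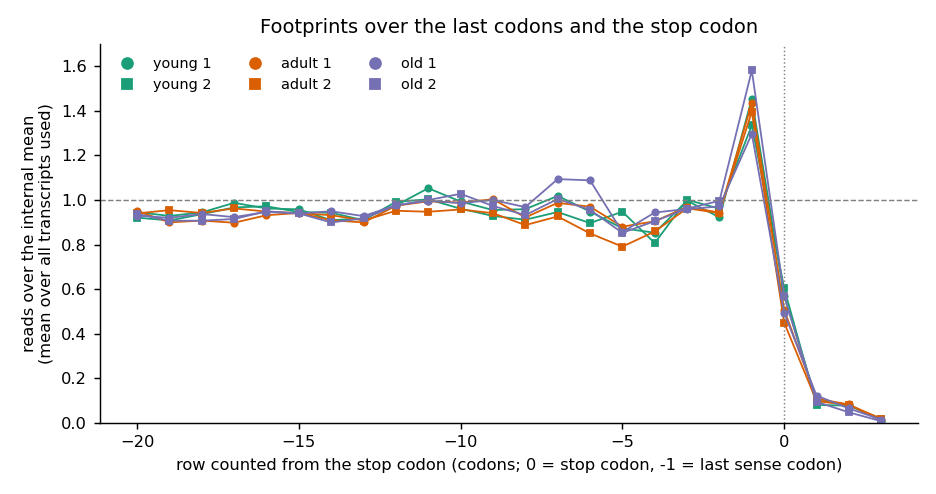
Reads over the internal mean (y axis) on each of the 24 rows from 20 codons before to 3 codons after the stop codon (x axis, in codons), averaged over 6369 transcripts, 1 line per library (young green, adult orange, old violet). All 6 lines peak at the last sense codon, between 1.297 and 1.581, fall to between 0.450 and 0.604 at the stop codon row, and are at or below 0.122 after it.

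Upstream of the peak the mean profile stayed between 0.866 and 0.999, with small features that recurred. Rows -12 to -8 were chosen because the study places a trailing ribosome 8 to 12 codons upstream of a strong pause, counted here from the stop codon row and not from the last sense codon. They were compared with the other rows of the end window. Their ratio was 1.05 and 1.03 for young, 1.05 and 1.02 for adult and 1.03 and 1.05 for old, above 1 in all 6 libraries (exact sign-flip test, p = 0.03125, the same after adjustment over 5 ratios). This excess was small beside the peak itself. The ratio was 1.05 to 1.16 with reads summed over transcripts. The lowest rows of the end window on average were row -5, with a mean density of 0.866, and row -4, with 0.879. Both were among the comparison rows of the ratio. Row -7, also a comparison row, held 0.996, above every row from -12 to -8 except row -11 at 0.999. The ratio therefore does not single out rows -12 to -8.

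After the stop codon the first row held 0.100 on average, the second 0.0721 and the third 0.0127. Rows 4 to 7 after the stop codon held 0 reads in every library and in all 22757 transcripts. The alignment reference ended 21 nucleotides after the stop codon, so reads of ribosomes further downstream had no place to align, and the 3 rows after the stop codon are cut short by this limit. Their density is therefore given for comparisons between groups of transcripts and not as a rate of readthrough. Between 77.3% and 87.1% of transcripts had no reads on these rows in a library.

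The peak was an average over transcripts with very unequal measured densities. In a library, 37.6% to 52.3% of transcripts had no read on the last sense codon and 36.1% to 45.8% had a density above 1 there. The median transcript lay between 0 and 0.784. Zeros were not particular to the peak, since the rows of the end window had no read in 41.4% to 62.6% of transcripts. How much of the inequality was counting error from few reads per codon was not tested. Among the 4820 transcripts with at least 100 internal reads in every library, 475 (9.86%) were above 1 in all 6 libraries and 1083 (22.5%) were below 1 in all 6. A last sense codon density above 6, a limit for strong pauses, was found in every library for 14 transcripts. The highest 1% of transcripts held 10.3% to 13.8% of the summed density on the last sense codon, 15.7% to 24.9% on the stop codon row and 33.8% to 57.4% after the stop.

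Among these 4820 transcripts, the one of 267 codons had the highest mean termination density, 13.9. Its density on the last sense codon, a threonine codon, was 21.7 and 20.3 in the young libraries, 24.9 and 20.3 for adult and 19.4 and 34.3 for old, from 12 to 36 reads per library. These values overlapped between ages, and the stop codon row of the same transcript held only 2 to 6 reads. The transcript of 615 codons, ending in leucine and TAG, was the one with many reads, 48 to 383 on the last sense codon and 41 to 224 on the stop codon row. Its termination density was 15.3 and 12.5 in the young libraries, 12.8 and 13.4 for adult and 8.20 and 9.83 for old, so that both old libraries lay below the other 4. It was not among the transcripts called between ages. Old and young were apart, in either direction, in 40.2% of the 1143 transcripts tested for such a change. Of these 5 transcripts 3 ended in threonine, 1 in serine and 1 in leucine, and none in TGA.

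Summing reads gave the abundant transcripts their full weight, and the peak then nearly vanished. With reads summed over all transcripts before dividing, the last sense codon density was 0.997 and 0.967 for young, 1.046 and 1.197 for adult and 0.987 and 1.22 for old. The stop codon row was between 0.297 and 0.380. In a library, 10 transcripts held 23.1% to 48.2% of last sense codon reads and 33.6% to 51.4% of stop codon row reads. Summed values thus rest largely on few transcripts. The transcripts were split into quartiles by reads per internal codon, all libraries summed, the lowest holding up to 3.30 reads and the highest from 17.2 reads. Internal reads also divide the density, so the grouping and the measure were not independent. How far this alone sets the quartiles apart was not tested. The last sense codon density fell from 1.66 (range over libraries 1.48 to 1.80) in the quartile with the fewest reads to 1.52, 1.34 and 1.16 (1.02 to 1.33) in the quartile with the most. The lowest quartile exceeded the highest 1.43-fold on the last sense codon and 1.89-fold on the stop codon row, in 6 of 6 libraries each (exact sign-flip tests, adjusted p = 0.0354 over 17 comparisons of transcript groups, which were chosen after the data were seen). After the stop codon the ratio was 2.94-fold, 3.95-fold with reads summed and 2.01-fold at 100 internal reads in every library. Each held in 6 of 6 libraries (exact adjusted p = 0.0354, 0.0483 and 0.0354). With the highest 1% of densities capped it was 1.15-fold and did not pass (exact adjusted p = 0.114). On the third of these rows 96.7% to 98.3% of transcripts had no read, so that 1% was a large share of those with reads. The end window held 0.993, 0.961, 0.909 and 0.913 from the lowest to the highest quartile. The lowest was 1.09-fold above the highest, and 0.971-fold under the same cap.

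Coding length went the other way. In the shortest quartile, 100 to 223 codons, the stop codon row held 0.459 (0.385 to 0.524) and the last sense codon 1.28 (1.15 to 1.41). In the longest quartile, 533 to 4992 codons, they held 0.623 (0.551 to 0.701) and 1.59 (1.46 to 1.81). The shortest transcripts were thus at 0.736 of the longest on the stop codon row and at 0.801 on the last sense codon, lower in 6 of 6 libraries (exact sign-flip tests, adjusted p = 0.0354). Neither difference passed when reads were summed (exact adjusted p = 0.425 and 0.863), and the ratio on the last sense codon was 1.03.

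**Figure D2:**
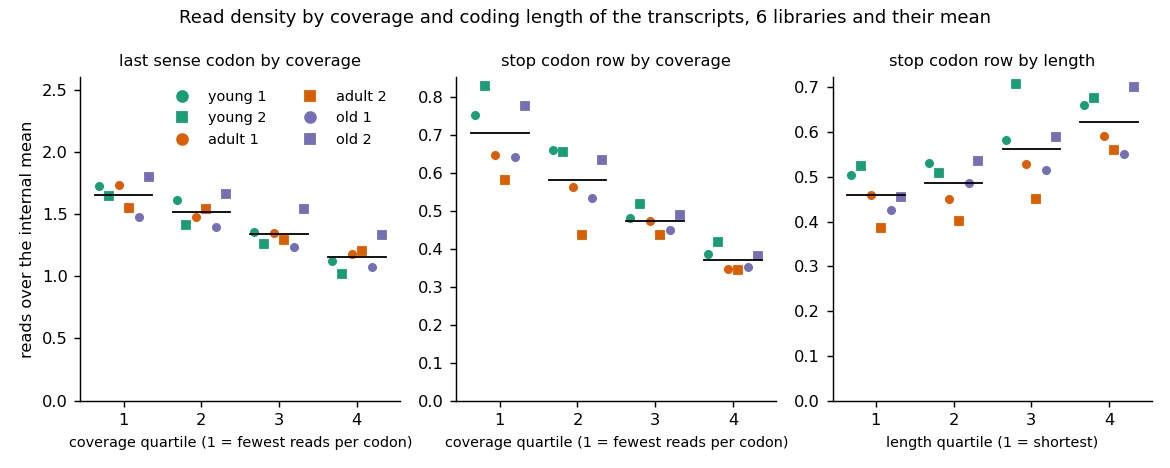
Reads over the internal mean on the last sense codon (left) and the stop codon row (middle) by quartile of reads per codon, and on the stop codon row by quartile of coding length (right). Points are the 6 libraries and black bars their mean, and the means fall from 1.66 to 1.16 and from 0.705 to 0.371 with coverage and rise from 0.459 to 0.623 with length.

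The 3 stop codons were used unequally. TGA ended 3164 of the 6369 transcripts (49.68%), TAA 1910 (29.99%) and TAG 1295 (20.33%), against 50.7%, 28.96% and 20.34% of all 22757 transcripts. On the stop codon row TAA transcripts held 0.459 and 0.463 for young, 0.340 and 0.311 for adult and 0.383 and 0.441 for old. TAG transcripts held 0.488 and 0.586, 0.469 and 0.469, and 0.476 and 0.539 in the same order. TGA transcripts held 0.670 and 0.697, 0.625 and 0.525, and 0.569 and 0.661. All 6 TAA values lay below all 6 TAG values, while TAG and TGA overlapped across libraries but not within any library.

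Within each library TGA exceeded TAA on the stop codon row 1.57-fold on average (log2 difference 0.65 ± 0.13, SD over 6 libraries), TAG exceeded TAA 1.27-fold and TGA exceeded TAG 1.24-fold. Each held in 6 of 6 libraries (exact sign-flip tests, adjusted p = 0.03125 over the 3 pairs). The order was another one on the last sense codon, with TAG at 1.53, TAA at 1.45 and TGA at 1.35 on average. There TGA was below TAG in 6 of 6 libraries (0.884-fold, exact adjusted p = 0.0469) and below TAA in 6 of 6 (0.936-fold, adjusted p = 0.0469). TAG against TAA differed by 1.06-fold and did not pass (5 of 6 libraries higher, exact adjusted p = 0.0625). It passed with the highest 1% of densities capped (1.08-fold) and at 100 internal reads (1.09-fold, exact adjusted p = 0.03125 each). TGA also stayed below TAG and TAA on that codon in both settings (exact adjusted p = 0.03125 each). On the stop codon row TGA and TAG stayed above TAA when reads were summed over transcripts (1.73-fold and 1.43-fold, exact adjusted p = 0.0469). TGA over TAG there no longer passed (1.21-fold, exact adjusted p = 0.125). On the last sense codon neither call held with reads summed: TGA was 1.10-fold above TAA (exact adjusted p = 0.188) and 0.957-fold of TAG, higher in 2 of 6 libraries (exact adjusted p = 0.531).

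**Figure D3:**
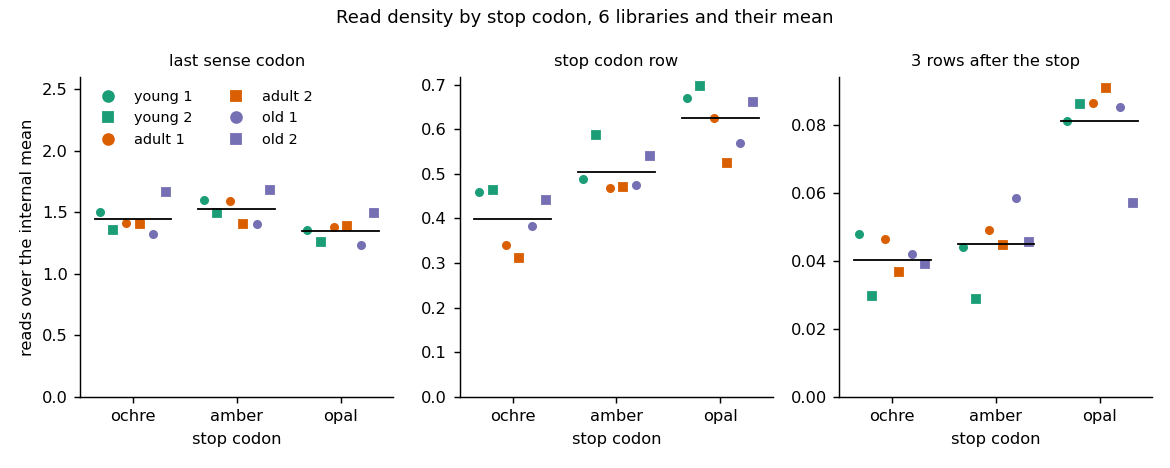
Reads over the internal mean (y axis) on the last sense codon, the stop codon row and the 3 rows after the stop, by stop codon: ochre is TAA, amber TAG and opal TGA. Points are the 6 libraries and black bars their mean, and on the stop codon row the means rise from 0.399 (ochre) to 0.504 (amber) and 0.625 (opal).

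TGA stood above TAA on the stop codon row (1.57-fold) and below it on the last sense codon (0.936-fold). The termination density averages the 2 rows, so these differences partly offset each other, and it differed less between stop codons. It was 1.07-fold higher for TGA than for TAA and 1.10-fold higher for TAG than for TAA (each in 6 of 6 libraries, exact adjusted p = 0.0469), and TGA was at 0.972 of TAG, lower in 5 of 6 libraries, which did not pass (exact adjusted p = 0.0625). The TGA to TAA difference on the stop codon row was also set against age. It was 0.55 and 0.59 (log2) for young, 0.88 and 0.76 for adult and 0.57 and 0.58 for old. Adult libraries lay above both other ages and old overlapped young, but 2 against 2 libraries cannot give an exact p below 0.333, and that was the value for adult against young and for old against adult.

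The order of the stop codons was also read among transcripts of low and high coverage. In the quartile with the fewest reads per codon the stop codon row held 0.489 for TAA, 0.713 for TAG and 0.810 for TGA. In the quartile with the most it held 0.319, 0.345 and 0.430. TGA was highest and TAA lowest in both, over 342 to 831 and 292 to 683 transcripts. On the last sense codon the same quartiles gave 1.60, 1.92 and 1.58, and then 1.21, 1.12 and 1.13, with TAG highest at low coverage and TAA highest at high coverage. These orders were not tested.

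Transcripts also differed by the base after the stop codon. Cytosine followed the stop in 1236 transcripts, adenine in 2368, guanine in 1580 and thymine in 1185. On the stop codon row transcripts with cytosine held 0.820 and 0.872 for young, 0.785 and 0.647 for adult and 0.679 and 0.754 for old, with a mean of 0.759. The means for thymine, guanine and adenine were 0.566, 0.482 and 0.431. In every library cytosine was highest.

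Cytosine exceeded adenine 1.76-fold, guanine 1.58-fold and thymine 1.34-fold on the stop codon row. On the last sense codon it held 1.81 (1.60 to 1.97) and exceeded adenine 1.37-fold, guanine 1.47-fold and thymine 1.25-fold. All 6 differences held in 6 of 6 libraries (exact sign-flip tests, adjusted p = 0.0354 over the 17 comparisons of transcript groups). With reads summed over transcripts, cytosine over guanine on the stop codon row fell to 1.12-fold and did not pass (exact adjusted p = 0.266), while the other 5 passed.

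Stop codon and next base together formed 12 signals of 4 bases, and on the stop codon row the extremes combined both features. TGA followed by cytosine was the highest, at 1.16 and 1.13 for young, 1.08 and 0.862 for adult and 0.872 and 0.881 for old over 543 transcripts. TAA followed by guanine was the lowest, with a mean of 0.334 (0.257 to 0.375) over 328 transcripts, and TAA followed by adenine was next, at 0.369. The lowest library of the first signal, 0.862, lay above the highest of the other 2 signals, 0.375 and 0.443. These signals were picked as the extremes of the same values. The mean was higher for TGA than for TAA before each of the 4 bases: 0.490 against 0.369 for adenine, 0.998 against 0.521 for cytosine, 0.517 against 0.334 for guanine and 0.682 against 0.392 for thymine. On the last sense codon the 3 highest signals were the 3 with cytosine, with means of 1.96 after TAG, 1.77 after TGA and 1.751 after TAA, and the lowest was TGA with guanine at 1.14. The low end depended on the weighting. With reads summed, TAG with thymine was the lowest in both rows, at 0.198 on the stop codon row and 0.844 on the last sense codon, where TGA with guanine stood at 1.21. TGA with cytosine stayed the highest on the stop codon row, at 0.557.

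**Figure D4:**
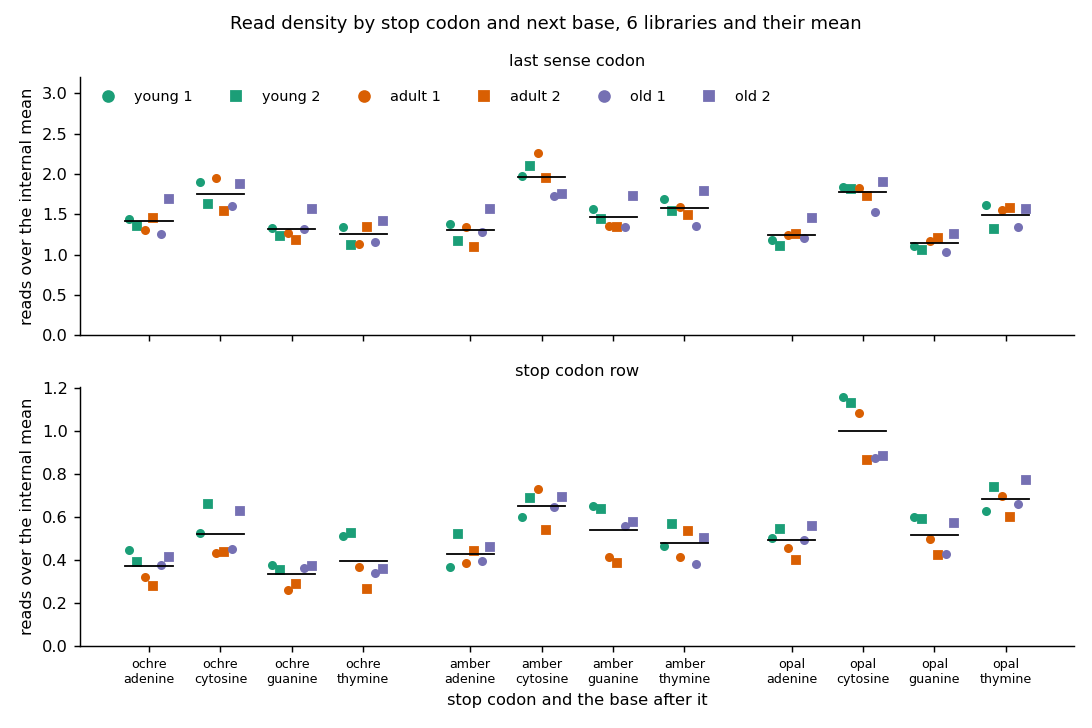
Reads over the internal mean (y axis) on the last sense codon (top) and the stop codon row (bottom) for the 12 combinations of stop codon (ochre TAA, amber TAG, opal TGA) and next base. Points are the 6 libraries and black bars their mean, and cytosine is the highest of the 4 bases for each stop codon in both panels, up to 0.998 for opal with cytosine on the stop codon row.

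On the rows after the stop codon, TGA transcripts held 0.0811 and 0.0863 for young, 0.0866 and 0.0910 for adult and 0.0854 and 0.0572 for old. TAA transcripts held between 0.0298 and 0.0480. TGA exceeded TAA 2.01-fold and TAG 1.82-fold in 6 of 6 libraries (exact sign-flip tests, adjusted p = 0.0469). These ratios rested in part on a few transcripts: with the highest 1% of densities capped they were 1.46-fold and 1.33-fold and still passed (exact adjusted p = 0.0469), and among transcripts with at least 100 internal reads in every library they were 1.48-fold and 1.33-fold and did not pass (exact adjusted p = 0.0938). The signal of TGA with cytosine moved from 0.179 to 0.0570 with the cap. Among the 4820 covered transcripts, 2442 (50.7%) had no read after the stop codon in any library, and the share was 48.7% for TGA, 52.1% for TAA and 53.1% for TAG.

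A second stop codon in frame within the 3 rows was found in 699 transcripts (11.0%). Where it was the first codon after the stop (233 transcripts), the 3 rows held 0.0475 on average against 0.0629 where none was found. This was 0.743-fold, lower in 6 of 6 libraries (exact adjusted p = 0.0354). The difference did not hold up, since it was 0.993-fold with the cap and 1.12-fold with reads summed, and passed in neither (exact adjusted p = 0.8125 and 0.204).

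The 5 transcripts with the highest density after the stop codon differed in kind. The transcript of 103 codons was the steadiest, with 2.70 and 3.40 for young, 1.92 and 2.46 for adult and 3.16 and 3.11 for old, from 25 to 41 reads after the stop per library against 3 to 7 on its last sense codon. It ended in TGA followed by cytosine. The transcript of 890 codons had 0 reads on the last sense codon in all 6 libraries and 1 to 8 after the stop, and the transcript of 772 codons ranged from 1.16 to 15.8. Only 9 of the 4820 covered transcripts (0.187%) had a mean density above 1 after the stop. They were 6 of 2354 with TGA (0.255%), 2 of 1502 with TAA (0.133%) and 1 of 964 with TAG (0.104%). With so few transcripts these shares were not tested.

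The height of the peak ran with the last residue between means of 0.971 and 2.58. Transcripts ending in threonine (242) held 2.57 and 2.78 on the last sense codon for young, 2.65 and 2.44 for adult and 2.25 and 2.79 for old. Serine followed with a mean of 2.15 (1.85 to 2.40, 617 transcripts), then glycine with 2.01 (1.72 to 2.27) and proline with 1.78 (1.32 to 2.10). The lowest means were those of glutamate at 0.971 (0.853 to 1.14), glutamine at 1.01 (0.866 to 1.12) and cysteine at 1.02 (0.860 to 1.15). Every threonine value lay above every value of the 3 lowest residues, but the residues were picked by these same values.

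Residues differ in density at internal codons too, so each was set against its mean over the internal codons of all 6369 transcripts. The last codon was read only in transcripts ending in that residue, so this is not a comparison within transcripts. Internal positions had equal weight, while the last codon had equal weight per transcript. In these terms 15 of 20 residues were higher at the end in 6 of 6 libraries (exact sign-flip tests, adjusted p = 0.0417 over 20 residues), and glutamate, phenylalanine, glutamine, cysteine and tyrosine did not pass. Threonine was 2.71-fold above its internal level of 0.947 and serine 1.94-fold above 1.10. Histidine followed at 1.61-fold, leucine at 1.58-fold and lysine at 1.57-fold. Proline and glycine, which had the highest internal densities at 1.31 and 1.35, were 1.34-fold and 1.48-fold higher at the end. The other 8 that passed were alanine, aspartate, arginine, isoleucine, methionine, asparagine, tryptophan and valine, between 1.18-fold and 1.55-fold. Tyrosine was at 0.898 and cysteine at 0.933 of their internal levels (exact adjusted p = 0.221 and 0.156). With reads summed over transcripts, the median log2 ratio over the residues fell from 0.50 to 0.13 and 0 residues passed. Only the last codon was summed in this setting and the internal levels were not, so the 2 medians are unlike measures.

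**Figure D5:**
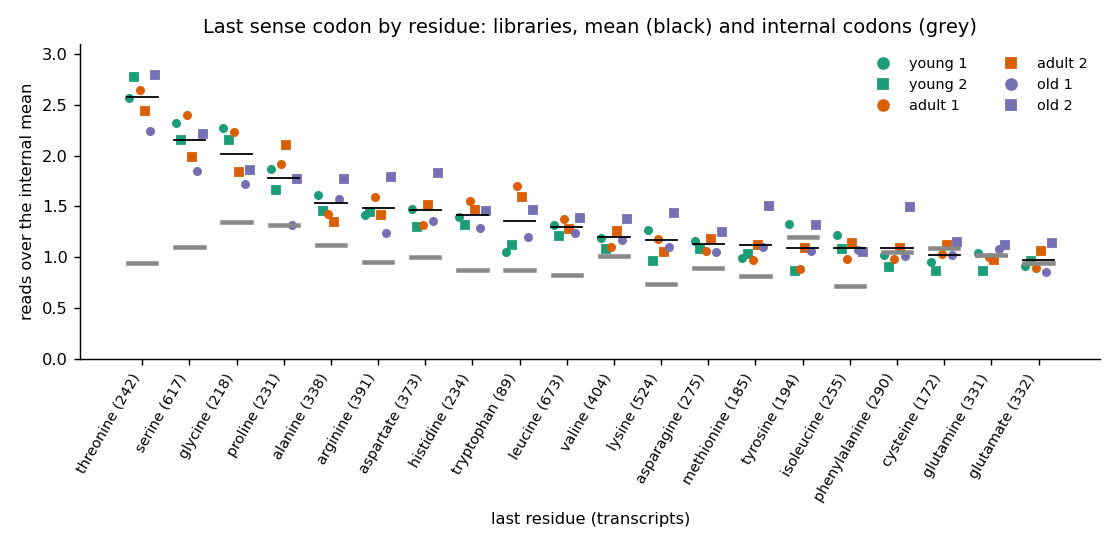
Reads over the internal mean (y axis) on the last sense codon by last residue (x axis, with the number of transcripts), ordered by mean. Points are the 6 libraries, black bars their mean and grey bars the mean of the same residue at internal codons of all 6369 transcripts. Threonine stands at 2.58 against 0.947 while glutamate stands at 0.971 against 0.945.

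Among synonymous codons the 4 threonine codons were all above their internal levels in every library, from 1.74 (range over libraries 1.38 to 1.93) for ACC in 70 transcripts to 4.57 (3.73 to 5.63) for ACG in 37. The 6 serine codons held 1.87 to 2.37. For isoleucine, ATC stood at 1.29 in 147 transcripts while ATT stood at 0.776 in 73 and ATA at 0.900 in 35. Tyrosine split in the same manner between TAC at 1.22 and TAT at 0.745. These are descriptions of small groups of transcripts and were not tested.

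The stop codon row followed the last residue as well. It was highest after threonine (0.922), serine (0.890) and histidine (0.719) and lowest after tyrosine (0.283), glutamate (0.289) and phenylalanine (0.317). Transcripts ending in a basic residue (arginine, lysine or histidine, 1149) held 0.569 there against 0.355 for an acidic one (aspartate or glutamate, 705), 1.61-fold higher in 6 of 6 libraries (exact sign-flip test, adjusted p = 0.0354). On the last sense codon basic and acidic endings differed by 1.07-fold and did not pass (5 of 6 libraries, exact adjusted p = 0.0664). Reads summed over transcripts gave 1.52-fold for the latter, which passed (exact adjusted p = 0.0483). It was 1.04-fold with the highest 1% of densities capped, 1.06-fold at 100 internal reads and 1.07-fold without the 10 most abundant transcripts. None of these passed (exact adjusted p = 0.390, 0.0664 and 0.0625). The difference on the stop codon row was 1.34-fold at 100 internal reads, in 6 of 6 libraries, with a lowest log2 difference of 0.00384.

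The comparison by age showed no difference that passed a test in the averages over transcripts, while a few single transcripts passed. The study reported more pausing in older livers, though less than in brain. Its methods kept single positions in the internal part of a transcript, which leaves out the rows compared here. Whether pausing changed with age at such internal positions was not tested. The last sense codon density came to 1.39 ± 0.0839 for young livers (SD, n = 2), 1.42 ± 0.0272 for adult and 1.44 ± 0.201 for old, and the 2 old libraries were the lowest and the highest of all 6. Termination densities were 0.991 ± 0.0297 for young, 0.947 ± 0.0342 for adult and 0.986 ± 0.127 for old livers. Only 3 of 18 comparisons of 6 measures had ages that did not overlap. The stop codon row was lower in adult than in young libraries (0.479 ± 0.0412 against 0.587 ± 0.0245), the rows after the stop were higher in adult (0.0662 against 0.0606), and the end window was higher in old than in adult (0.954 against 0.932). For each of the 3 the exact permutation test gave p = 0.333, the smallest that 2 against 2 libraries allow, so this test cannot reach 0.05 for a single value.

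A limma fit over the 24 rows, which shares the spread between rows, called 0 rows between old and young, 0 between adult and young and 0 between old and adult (0% each, adjusted p under 0.05). Without adjustment 3, 2 and 1 rows had a limma p under 0.05. Those were rows -4 (higher in old), -3 and 2 (lower in old) for old against young, rows -3 and 0 (lower in adult) for adult against young, and row 2 (lower in old) for old against adult. The same fit over the 12 signals of stop codon and next base called 0 in each comparison (0%; 0, 1 and 1 without adjustment), and over the 20 last residues it called 0 in each (0%; 1, 1 and 0 without adjustment). Reads summed over transcripts gave 3 last residues between old and young livers.

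Single transcripts were tested with edgeR's quasi-likelihood test on the reads of the last sense codon and stop codon row together. The internal reads of the same transcript and the library's mean termination density formed the offset. A change in the amount of a transcript thus cancels, and a shift in the library mean is taken out. The offset is taken as known, so the counting error of the internal reads enters neither the SE nor the p. Of 1143 transcripts with enough reads, 4 were called between old and young (0.35%), 2 higher and 2 lower in old, 0 between adult and young (0%) and 6 between old and adult (0.525%). Without adjustment 110, 124 and 110 transcripts had p under 0.05 in edgeR, and DESeq2 called 10, 3 and 8 after adjustment. The coefficient of variation between libraries beyond counting error was 22.9%. The library mean did not fully centre the 1143 transcripts tested. Their median log2 change was 0.121 for old against young, 0.119 for adult against young and -0.0400 for old against adult. Both old libraries lay above both young ones in 278 of them and below in 182.

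Nfu_t_1_006469, with 1699 coding codons the transcript with the most reads over the 6 libraries together, ends in serine and TAA. Its termination density was 0.455 and 0.363 for young, 0.645 and 0.841 for adult and 0.989 and 0.794 for old, a log2 change from young to old of 1.16 ± 0.25 (SE; edgeR adjusted p = 0.0301). Its termination reads were 4676 and 2608 in young against 5649 and 1054 for old, while its internal reads fell from 8518049 and 5963153 to 4739353 and 1100899. What rose was thus the ratio of the 2. In density both old libraries lay above both young ones, and no library exceeded 1. The naming rule required such a gap, and old and young were apart, in either direction, in 40.2% of the 1143 transcripts tested. Its end window moved too, from 1.502 and 1.41 in young through 2.08 and 1.796 in adult to 2.57 and 2.01 for old (log2 change 0.64, edgeR adjusted p = 4.86e-07).

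Nfu_t_1_055613, with 355 codons and ending in valine and TGA, had a density of 0.113 and 0.0628 for young, 0.199 and 0.269 for adult and 0.281 and 0.293 for old (log2 change 1.74 ± 0.35, edgeR adjusted p = 0.0207). Its termination reads were 69 and 60 in young against 52 and 99 for old, while its internal reads fell from 95841 and 150588 to 29181 and 53209. All ages were far below a density of 1, so the rise is one from a very low level.

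Nfu_t_1_007406, with 148 codons and ending in glycine and TAA, fell from 3.07 and 3.67 in young and 5.21 and 4.18 in adult to 1.11 and 0.897 for old (log2 change -1.71 ± 0.37, edgeR adjusted p = 0.0301). Nfu_t_1_014452, with 416 codons and ending in histidine and TGA, fell from 67.4 and 128 in young and 100.3 and 62.7 in adult to 24.4 and 9.68 for old (log2 change -2.71 ± 0.48, edgeR adjusted p = 0.00664). Its internal part held only 24 to 233 reads per library, and their counting error is in neither this SE nor this p. Its end window had a density of 48.8 to 53.6 in the young and adult libraries and of 15.0 and 7.73 for old. The high densities of this transcript were thus not confined to the last sense codon and the stop codon row. How they were spread over the rows of the end window was not examined.

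None of the 4 calls survived leaving out young replicate 2 (edgeR adjusted p from 0.277 to 0.348) or either adult library (from 0.0579 to 0.264). The call of Nfu_t_1_006469 was also lost without old replicate 1 (0.288), and those of Nfu_t_1_014452 and Nfu_t_1_007406 without old replicate 2 (0.186 and 0.272). The log2 changes kept their sign throughout, but that of Nfu_t_1_014452 ran from -1.90 without old replicate 2 and -2.08 without young replicate 2 to -3.47 without old replicate 1. This transcript did not reach 100 internal reads in every library and was not tested under that minimum.

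For the reads of the end window, rows -20 to -2, edgeR tested 4938 transcripts in the same manner. It called 19 between old and young (0.385%), 11 higher and 8 lower in old, 10 between adult and young (0.203%), 4 higher and 6 lower in adult, and 13 between old and adult (0.263%), 7 higher and 6 lower in old. The steepest fall and rise between old and young, picked after their values were seen, were those of a transcript of 128 codons and one of 859 codons. The first had an end window density of 4.55 and 5.89 for young, 5.17 and 0.971 for adult and 0.123 and 0.0477 for old (edgeR adjusted p = 7.54e-12). The second held 0.0529 and 0.0441 for young, 0.0467 and 0.0255 for adult and 0.244 and 0.621 for old (edgeR adjusted p = 4.45e-06). In both, the old libraries lay apart from the other 4. Old and young libraries were apart, in either direction, in 37.5% of the 4938 transcripts tested, 1046 higher and 804 lower in old. Old and adult libraries were apart in 37.4%, 1147 higher and 698 lower in old.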

How the data were processed

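Ribosome footprints of liver were analysed from 6 libraries, 2 per age. Per the labels and the methods, the authors trimmed adapters with cutadapt 1.4.2, discarded footprints of ribosomal RNA and used Bowtie 1.3.1 for alignment to the longest transcript of each gene with 21 flanking nucleotides, keeping unique best hits with up to 2 mismatches. The deposited values are raw counts of reads per codon, not normalized. No molecular identifiers were described, so PCR copies count separately, and near-identical paralogs lose reads to the unique-hit rule. Replicates are separate pools of livers.

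Densities were computed in Python 3.11.15 and averaged with equal weight per transcript. Ages were compared with two-sided exact permutation tests, and groups of transcripts with exact sign-flip tests over the 6 libraries. limma 3.58.1 (log2 densities) and edgeR 4.0.16 (counts, filterByExpr, all 6 libraries in 1 fit) used Benjamini-Hochberg adjustment with a threshold of 0.05. The tests were checked on simulated data. With 200 transcripts changed, edgeR recovered 59% of 4-fold and 77% of 8-fold changes in termination reads, with 2 and 8 false calls. For end window reads it recovered 24% of 2-fold and 86% of 4-fold changes, with 2 and 6 false calls. Smaller changes can therefore go uncalled. The simulation kept the internal reads fixed, so it does not cover their counting error. Transcripts were named by a rule: the 2 largest rises and 2 largest falls in termination reads relative to internal reads among those called, moving alike in all 4 pairs of young and old libraries, plus the 5 highest by termination and by after-stop density. The transcripts, groups and lists were chosen with earlier results of these data known. One used transcript ended in an undetermined codon and was left out of the residue groups. No gene names were matched to the identifiers.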

Additional observations from a re-analysis of the deposited data

How the results depend on the processing

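Several differences between ages turned with the setting, while those on the stop codon row kept their direction under all 11 alternatives run. Termination density, old minus young, was -0.00514 as reported and 0.0501 with reads summed over transcripts, 0.0184 with the highest 1% of densities capped, 0.0241 with at least 100 internal reads in every library and 0.0114 over the whole coding mean. After the stop the same settings gave 0.00585, 0.00740, 0.00722 and 0.00459 for old minus young, and the first 3 gave 0.00345, 0.00538 and 0.00203 for old minus adult. With reads summed, termination density was 0.0423 and the end window 0.0478 for adult minus young, the last codon was -0.0182 for old minus adult, and the trailing ratio was -0.0760 for old minus young and -0.0459 for old minus adult. The trailing ratio was -0.00319 for old minus young at 100 internal reads. The causes were not tested. Of the values of the main comparisons under other settings, 335 were counted as the same and 44 as moved beyond the spread or by over 1.5 times. A further 37 reversed, 2 newly passed and 1 no longer passed. For differences between ages, the same meant only the same sign, since 2 against 2 libraries cannot give an exact p under 0.05. For counts of calls it meant a count within 1.5 times the main one. For the 4 transcripts named between ages, 35 calls held and 15 were lost.

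Among stop codons, the log2 termination difference of TGA over TAG was 0.0175 with reads summed, -0.0836 at 100 internal reads, -0.18 on the last codon alone and 0.31 on the stop codon alone. On the last codon alone TGA over TAA was -0.0950 and TAG over TAA 0.0822 (exact adjusted p = 0.0625). With reads summed, TGA over TAA on the last codon was 0.14, TAG over TAA after the stop -0.26 and a second stop in row 1 over none 0.16. The lowest over the highest coverage quartile in the end window was then -0.0653, and the shortest over the longest quartile on the last codon 0.0364. Against their internal codons, whose levels were not summed, 0 residues passed, with a median of 0.13. A second stop in row 2 gave 0.0613 with the cap and 0.21 at 100 internal reads, and coverage in the end window -0.0430 with the cap. The settings applied to groups of transcripts were chosen after the data were seen.

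For counts of calls by termination reads, old against young gave 10 of 1143 transcripts tested with DESeq2, against 4 of 1143 in the main test. It gave 18 of 890 tested on the last codon alone and 13 of 314 tested on the stop codon alone. Adult against young gave 3 of 1143 with DESeq2 and 1 of 5447 with no filter, against 0 of 1143 in the main test. It gave 2 of 890 on the last codon alone and 11 of 314 on the stop codon alone. Old against adult gave 13 of 890 on the last codon alone and 0 of 314 on the stop codon alone, against 6 of 1143 in the main test. An offset of internal reads only gave 1 of 1143. For the end window, DESeq2 called 3 of 4938 between adult and young and 6 of 4938 between old and adult. No filter gave 20 of 6190 for the latter. Reads summed gave 3 last residues between old and young. Replicate numbers were not treated as pairs in the main fits. Deviations between replicates correlated weakly across ages, from 0.0116 to 0.0803, which cannot show that replicates of a number shared no batch. With a replicate block the termination counts were 8 (old against young), 6 (adult against young) and 11 (old against adult). Without it they were 4, 0 and 6. With the block 1 row was called between old and young.

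Leaving out 1 library at a time, with a lone library assumed to vary like the others, gave these ranges for old minus young, adult minus young and old minus adult. Termination density ran from -0.0952 to 0.0850, -0.0681 to -0.0196 and -0.0514 to 0.129. The last codon ran from -0.0978 to 0.187, -0.0387 to 0.0800 and -0.118 to 0.166. The stop codon ran from -0.0926 to -0.0169, -0.138 to -0.0792 and 0.0157 to 0.0915. After the stop the ranges were -0.0112 to 0.00628, 0.00254 to 0.00851 and -0.0168 to 0.000755. The end window ran from -0.00110 to 0.0176, -0.0230 to -0.00543 and 0.0131 to 0.0318, and the trailing ratio from -0.00829 to 0.0144, -0.0187 to 0.0131 and -0.0101 to 0.0217. In the same order, calls ran from 0 to 1, 0 to 0 and 0 to 1 among rows, 0 to 2, 0 to 1 and 0 to 5 among signals, 0 to 4, 0 to 1 and 0 to 3 among last residues, 0 to 7, 0 to 3 and 0 to 12 transcripts by termination reads, and 18 to 28, 3 to 19 and 9 to 20 by end window reads. The log2 differences of stop codons stayed within 0.08 to 0.12 (TGA over TAA), 0.12 to 0.16 (TAG over TAA) and -0.05 to -0.03 (TGA over TAG), and the residue median within 0.44 to 0.52. With 5 libraries the smallest exact p is 0.0625, so none of these could pass. Depth limits single transcripts: most had no read on the stop codon row in a library.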
